A study of Mus musculus with 26 samples.

Results

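CD4 T cells isolated with magnetic beads from the lungs of mice with melanoma metastases were compared between animals given propranolol, a blocker of β-adrenoceptors, and untreated animals. The comparison was defined by cell type and treatment in the labels, so that 8 of the 26 libraries of the series entered it: 4 from untreated and 4 from treated animals. All animals were C57BL/6 mice that had received B16F10 cells, a mouse melanoma line that seeds the lung after injection into a vein, so the controls carried tumours too. The dose, the length of treatment, and the age and sex of the animals are not given in the sources used here. Polyadenylated RNA was sequenced, and every gene of the table was considered in both directions. Nothing in the labels ties the 4 libraries of a group to different animals; p-values therefore reflect only how much the libraries varied.

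Noradrenaline released by sympathetic nerves and adrenaline from the adrenal gland act on lymphocytes through β-adrenoceptors, receptors coupled to the stimulatory G protein. Adenylyl cyclases then make cyclic AMP (cAMP), which releases protein kinase A, and the kinase phosphorylates CREB, a transcription factor that binds cAMP response elements in promoters. Phosphodiesterases break cAMP down again, and several of them, like the repressor encoded by Crem, are themselves made in response to cAMP. Many CREB targets are also immediate early genes, which T cells switch on within a short time of receptor stimulation or stress.

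The libraries held transcripts of T cells and of other blood cells. Summed levels of B cell and plasma cell genes exceeded that of the T cell receptor complex. Levels are given as CPM, a gene's count relative to the library total, scaled by TMM, a method that assumes that most genes do not differ; values of a group are listed in the order of libraries 1 to 4. Cd4 stood at 566, 559.7, 561 and 569.6 CPM in the controls and 603, 453, 521 and 516 CPM with propranolol, and the groups overlapped. Cd3e, a chain of the T cell receptor complex, stood at 266, 251, 247 and 252 CPM in the controls and 379, 283, 324 and 321 CPM with propranolol. Here the groups did not overlap, as was so for 56.4% of all genes tested. Sftpc, Sftpa1 and Sftpd of alveolar epithelium, Scgb1a1 of airway epithelium and the pigment genes Tyrp1, Dct and Tyr had no count in any of the 8 libraries, which allows a level of up to 0.0225 CPM over the 4 controls and 0.0247 CPM over the 4 treated libraries (3 counts of each group's total, counting error only). Immunoglobulin genes took from 3.55% to 4.86% of the counts of a library, and genes of the mitochondrial genome were listed at 0. The T cell receptor complex list summed to 3488 to 3572 CPM in the controls and 5606 to 6017 CPM with propranolol. The B cell list summed to 8646 to 9967 and 11409 to 12831 CPM, and the plasma cell list to 20770 to 22274 and 22137 to 33430 CPM. Ighm alone averaged 9153 CPM in the controls and 10930 CPM with propranolol. Such sums do not give numbers of cells.

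Total counts ran from 17625672 to 35600275 in the controls and from 27742422 to 42484125 in the treated libraries. The first principal component, with 69.0% of the variance, separated the treatments, and the second, with 12.5%, separated treated library 2 from treated library 1. Treated libraries 3 and 4 lay between these extremes. Of 1403 genes that differed over 2-fold between treated libraries 1 and 2, 1188 (84.7%) had libraries 3 and 4 both between them; for the other pairs of treated libraries the share was from 19.3% to 30.7%. Among immunoglobulin variable segments, which differ between B cell clones, it was 66 of 69 (95.7%). Igkv4-61, a segment chosen after its values were seen, stood at 179, 1693, 985 and 856 CPM in treated libraries 1 to 4 and at 55.2, 50.7, 53.3 and 51.96 CPM in the controls. Chi-square per degree of freedom over genes was 5.39 between treated libraries 3 and 4, from 4.88 to 7.01 between controls, and from 36.9 to 136 between the remaining treated pairs, so no pair agreed within sampling noise. Each pair of controls had 0 or 1 immunoglobulin variable segment that differed over 2-fold. Treated libraries 3 and 4 had 1, and treated libraries 1 and 2 had 69. Whether treated libraries 3 and 4 hold RNA that is also in libraries 1 and 2 was not tested. Nor was it tested whether the controls share RNA. The 4 libraries of either group may therefore not be independent of each other.

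**Figure D1:**
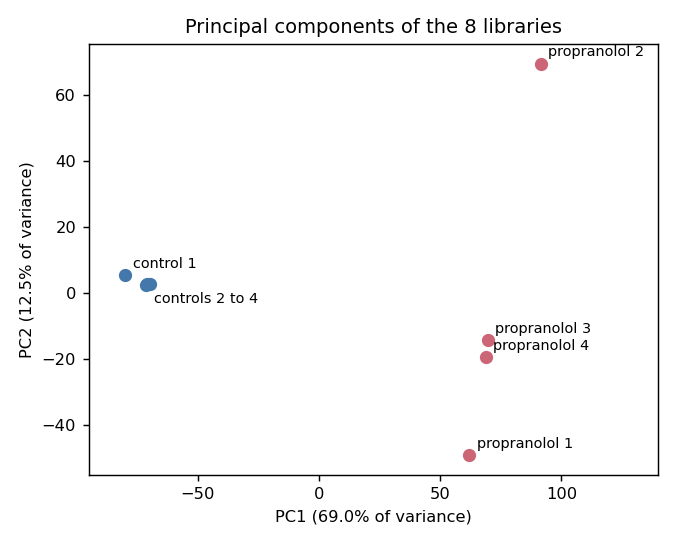
Scores of the 8 libraries on the first and second principal components of log2 CPM over the genes tested, with the share of variance on each axis; each point is 1 library, blue for controls and red for propranolol. The controls lie close together, and treated libraries 3 and 4 lie between treated library 1 at the bottom and treated library 2 at the top.

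Propranolol was associated with a different level of most expressed genes. Of 16550 genes tested (edgeR quasi-likelihood test, Benjamini-Hochberg adjustment), 9929 (60.0%) changed at an adjusted p under 0.05, 4982 (30.1%) higher and 4947 (29.9%) lower in the treated libraries. By more than 4-fold, 710 genes rose and 620 fell, and by more than 16-fold 124 rose and 61 fell. The median log2 change of all genes tested was -0.04. For 9330 of the genes tested (56.4%) the control and treated libraries did not overlap, so a lack of overlap does not set a gene apart. Wherever a gene is said to have risen, fallen or changed by a value, that value is its log2 change, propranolol over control. The split between higher and lower calls depended on how the libraries were scaled: it was 3876 higher and 6427 lower with upper quartile factors, 2886 and 8064 with total counts alone, and 1779 and 10427 when the libraries were scaled on the summed counts of T cell receptor genes. These scalings shifted the median of all genes by -0.19, -0.39 and -0.69 on the log2 scale. The median of a list relative to that of all genes moved by at most 0.03 between scalings. With treated libraries 1 and 2 alone, 7873 of 17995 genes (43.8%) changed, and 7571 of these were called in the same direction by the fit to all 8 libraries. These fits share the controls and treated libraries 1 and 2, so their agreement is no independent support. With treated libraries 3 and 4 alone, 11040 of 18068 (61.1%) changed. With the 4 controls also summed to 1 library and set against treated libraries 1 and 2, only 771 of 16550 genes (4.66%) were called, 651 higher and 120 lower, and 49 of the 172 genes named in the text lost their call, none of them with a change of sign. In that fit of 3 libraries 18 of the 19 cAMP and CREB targets, 16 of the 20 immediate early genes and 12 of the 14 NF-kB feedback genes described below were still called higher.

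**Figure D2:**
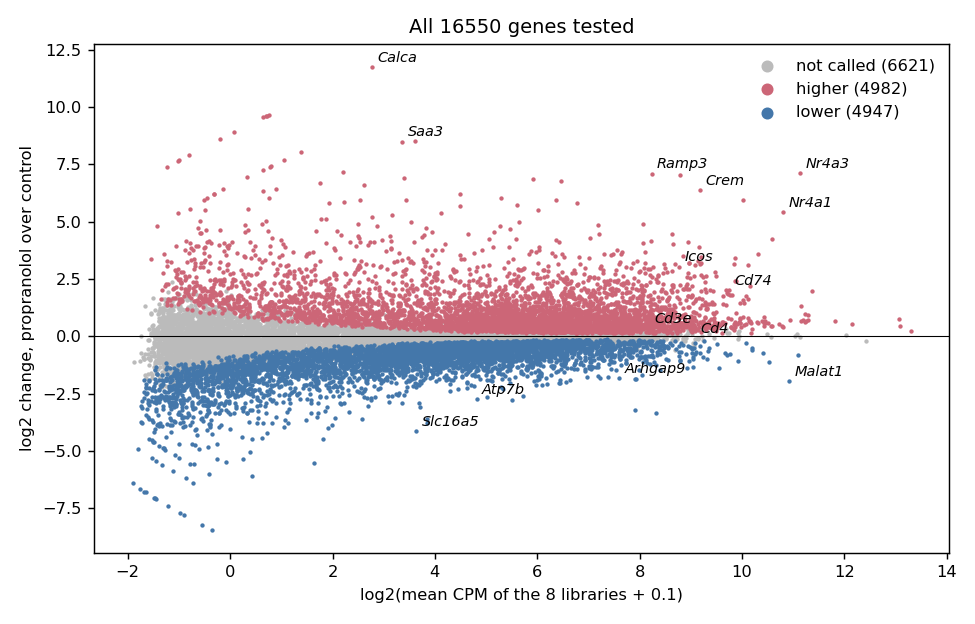
Log2 change with propranolol (vertical axis) against the log2 of the mean CPM over the 8 libraries plus 0.1 (horizontal axis) for all 16550 genes tested; 4982 genes are higher (red), 4947 lower (blue) and the rest not called (grey). Nr4a3, Nr4a1 and Crem stand apart at the upper right, with changes of 7.12, 5.41 and 6.38.

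Targets of cAMP and CREB were among the genes that rose most. Of 19 such genes, 18 rose and none fell, against 30.1% higher among all genes, with a median log2 change of 2.92 and a median of all genes of -0.04. The members of this and all other lists were chosen with earlier results of these data known. Their counts and medians therefore describe the lists and are no independent support. Nr4a3, Nr4a1 and Nr4a2 encode orphan nuclear receptors that act as transcription factors in activated lymphocytes. Their promoter windows are shown because each holds 4 matches to TGACG, the core of the cAMP response element, and Areg's because it holds the full element TGACGTCA. The windows run from 250 bases before to 50 after the start of transcription, on the strand of the gene, from RefSeq with build GRCm38.p6; matches to TGACG or its reverse complement CGTCA are in capitals.
Nr4a1, chr15:101266596-101266895, plus strand: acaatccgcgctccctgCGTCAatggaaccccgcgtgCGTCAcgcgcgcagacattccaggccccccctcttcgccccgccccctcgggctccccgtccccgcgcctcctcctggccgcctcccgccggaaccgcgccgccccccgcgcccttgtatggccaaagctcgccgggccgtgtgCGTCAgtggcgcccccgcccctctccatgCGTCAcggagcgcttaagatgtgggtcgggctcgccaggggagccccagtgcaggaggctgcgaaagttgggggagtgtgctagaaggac
Nr4a2, chr2:57123954-57124253, minus strand: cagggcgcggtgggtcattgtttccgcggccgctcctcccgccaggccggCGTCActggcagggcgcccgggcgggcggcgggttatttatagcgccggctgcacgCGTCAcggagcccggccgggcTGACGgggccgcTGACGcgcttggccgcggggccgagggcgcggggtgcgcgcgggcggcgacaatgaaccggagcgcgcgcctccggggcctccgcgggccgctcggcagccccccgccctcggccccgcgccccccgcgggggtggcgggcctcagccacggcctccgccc
Nr4a3, chr4:48045055-48045354, plus strand: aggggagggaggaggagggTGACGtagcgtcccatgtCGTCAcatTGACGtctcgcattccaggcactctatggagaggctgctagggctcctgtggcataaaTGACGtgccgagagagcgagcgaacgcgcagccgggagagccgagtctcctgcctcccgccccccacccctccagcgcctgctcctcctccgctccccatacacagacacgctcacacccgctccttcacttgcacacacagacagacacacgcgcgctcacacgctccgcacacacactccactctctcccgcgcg
Areg, chr5:91139349-91139648, plus strand: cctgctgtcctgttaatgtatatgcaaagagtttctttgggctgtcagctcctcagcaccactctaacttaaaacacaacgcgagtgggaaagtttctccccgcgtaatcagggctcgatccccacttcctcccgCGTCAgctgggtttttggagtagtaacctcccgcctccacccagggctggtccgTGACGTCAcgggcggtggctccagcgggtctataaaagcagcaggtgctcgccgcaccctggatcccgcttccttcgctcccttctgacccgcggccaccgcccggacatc

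TGACG was searched on both strands in every promoter window of RefSeq; it lies within TGACGTCA, so that a full element counts for both. Of the 19 genes on the list, 16 had a window, and 14 of these (87.5%) held TGACG, compared with 6228 of 27025 genes of all (23.05%). Both other lists searched also stood above all genes: TGACG was in 9 of 16 immediate early genes with a window (56.3%), a list that shares members with this one, and in 10 of 18 heat shock and chaperone genes (55.6%). The full element was in 3 of the 16 (Dusp1, Areg and Btg2) and in 2.03% of all genes. The 4 windows of Pde4b held 1 match in all. Counted by window, TGACG was in 15 of 20 (75%) of the list and in 20.8% of all windows. A match is a description of the letters only. Genes listed as CREB targets may hold TGACG more often by that choice alone, so the share is no result of the treatment.

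Nr4a3 stood at 30.1, 32.7, 34.4 and 31.3 CPM in the controls and 5183, 3903, 4414 and 4413 CPM with propranolol. The treated libraries all lay far above the controls. Its log2 change was 7.12 ± 0.11 (SE, adjusted p = 3.93e-12). Nr4a1 was at 79.7, 81.2, 83.8 and 85.8 CPM in the controls and 4018, 3307, 3349.8 and 3340.3 CPM with propranolol, with library 1 highest among the treated and the groups apart, a log2 change of 5.41 ± 0.08 (SE, adjusted p = 3.93e-12). Nr4a2 rose from 6.51 ± 1.29 to 873 ± 120.1 CPM (SD, n = 4), a log2 change of 7.05 ± 0.16 (SE, adjusted p = 2.74e-11).

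Crem, the cAMP-inducible repressor, stood at 13.7, 14.98, 11.8 and 14.3 CPM in the controls and 1037, 1203, 1169 and 1148 CPM with propranolol. Both groups were narrow and did not overlap, and the log2 change was 6.38 ± 0.10 (SE, adjusted p = 3.93e-12). Rgs2, which speeds the turning off of G proteins, was at 32.6, 30.5, 31.3 and 33.7 CPM in the controls and 530.2, 588, 582 and 558 CPM with propranolol, again without overlap, and its log2 change was 4.14 ± 0.07 (SE, adjusted p = 3.93e-12). Atf3, a stress-induced transcription factor, rose from 1.54 ± 0.367 to 175 ± 24.8 CPM (SD, n = 4) with a log2 change of 6.78 ± 0.16 (SE, adjusted p = 3.43e-11). Areg, a growth factor of the epidermal growth factor family made by regulatory T cells, was at 0.892, 0.504, 0.542 and 0.542 CPM in the controls and 45.5, 43.4, 40.5 and 45.9 CPM with propranolol. Its level was low in every control and its log2 change was 6.2 ± 0.15 (SE, adjusted p = 4.02e-11). Dusp1, a phosphatase of MAP kinases, changed by 2.82 and Per1, a clock gene, by 2.07 (adjusted p = 1.23e-10 and 2.36e-08). Ppargc1a was the member not called.

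**Figure D3:**
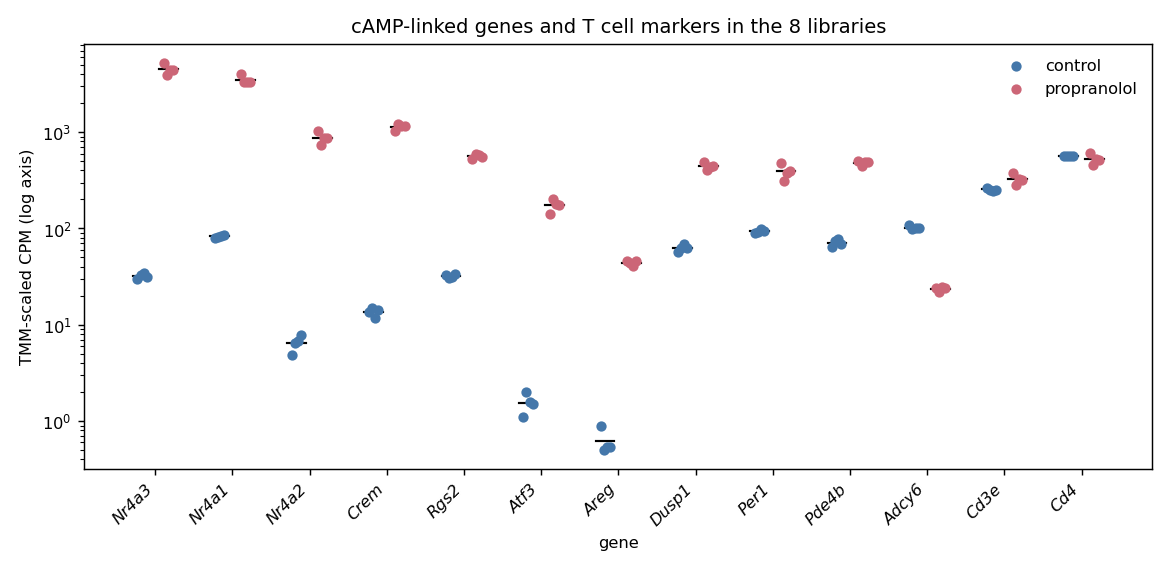
TMM-scaled CPM (log axis) of cAMP-linked genes and of the T cell markers Cd3e and Cd4 in the 8 libraries; each point is 1 library and each bar the group mean of 4 libraries, blue for controls and red for propranolol. Nr4a3 rises from a mean of about 32.1 to 4478 CPM, Adcy6 falls, and Cd4 overlaps between groups; levels are not compared between genes.

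Genes of the cAMP pathway moved in both directions. Adrb1, a β-adrenoceptor, was at 0.595, 0.812, 0.345 and 1.03 CPM in the controls and 0.645, 0.749, 0.817 and 1.18 CPM with propranolol and was not called (adjusted p = 0.599), while Adrb3 was not tested because its counts were too low. Of 24 genes that make, bind or break down cAMP, 12 rose and 9 fell (median 0.06, whose sign turned under 3 of 5 other scalings). The phosphodiesterases Pde4b and Pde4d, which hydrolyse cAMP, rose by 2.75 and 1.68. Prkar1a, a regulatory subunit of protein kinase A, rose by 1.5. Adcy6, an adenylyl cyclase, fell: it stood at 108, 98.1, 100.4 and 102 CPM in the controls and 23.9, 21.9, 24.8 and 23.97 CPM with propranolol, with no overlap, a log2 change of -2.11 ± 0.07 (SE, adjusted p = 3.35e-10). Akap13, an anchoring protein of protein kinase A, rose by 0.39 (adjusted p = 7.15e-04), and fell under scaling on T cell receptor genes.

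Ramp3, which modifies the receptors for calcitonin-family peptides, and Calca, which encodes calcitonin gene-related peptide, were among the genes with the largest rise. Ramp3 was at 3.72, 4.76, 3.57 and 5.36 CPM in the controls and 613, 625, 585 and 569 CPM with propranolol, a log2 change of 7.09 ± 0.13 (SE, adjusted p = 6.94e-12). Calca had no count in any control and stood at 20.8, 5.07, 13.2 and 14.7 CPM in treated libraries 1 to 4, at least 598-fold above a floor of 3 counts over the 4 controls. Library 2 was the lowest of the treated. Calca and Ramp3 were called at adjusted p values of 6.98e-06 and 6.94e-12.

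Immediate early genes and NF-kB feedback genes rose together. All 20 immediate early genes tested rose (median 2.77), and so did all 14 NF-kB feedback genes (median 2.39), against 30.1% of all genes. The first list shares 7 members with the cAMP list. Fosl2, of the AP-1 family, was at 30.8, 35.5, 35.4 and 32.05 CPM in the controls and 2375, 1715, 2046 and 2057 CPM with propranolol, a log2 change of 5.93 ± 0.11 (SE, adjusted p = 1.00e-11), and Junb, also of AP-1, changed by 3.43 and Egr2 by 3.59 (adjusted p = 1.00e-11 and 1.50e-11). Tnfaip3, an enzyme that dampens NF-kB signalling, stood at 162, 150.3, 155 and 151 CPM in the controls and 3290.4, 2507, 2892 and 2950.3 CPM with propranolol. No treated library approached the controls, and its log2 change was 4.23 ± 0.09 (SE, adjusted p = 1.52e-11). Nfkb1 and Nfkb2, subunits of NF-kB, changed by 2.43 and 2.62 and Birc3, an inhibitor of apoptosis, by 1.92. Dusp5, another MAP kinase phosphatase, was at 34.1, 35.1, 33.8 and 34.98 CPM in the controls and 804, 792, 722 and 706 CPM with propranolol, a log2 change of 4.45 ± 0.07 (SE, adjusted p = 3.93e-12). Cdkn1a, the cell cycle inhibitor p21, was at 3.22, 2.69, 2.69 and 2.68 CPM in the controls and 135, 122, 130.1 and 121 CPM with propranolol, a log2 change of 5.51 ± 0.09 (SE, adjusted p = 3.93e-12). Gadd45b, a stress-induced gene, rose by 4.92, Pmepa1, a target of transforming growth factor-β, by 4.29 and Tnfrsf1b, a receptor for tumour necrosis factor, by 3.17.

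Several of the largest rises were in genes that myeloid cells also make. Cxcl10, an interferon-inducible chemokine, was at 3.47, 3.44, 4.46 and 3.66 CPM in the controls and 211, 228, 206 and 213 CPM with propranolol, a log2 change of 5.82 ± 0.10 (SE, adjusted p = 3.93e-12). Ptgs2, the inducible cyclooxygenase, was at 0.297, 0.05601, 0 and 0 CPM in the controls and 26.8, 21.04, 24.8 and 23.8 CPM with propranolol, and Cxcl2, a neutrophil chemokine, at 0.297, 0, 0.148 and 0.271 CPM in the controls and 18.4, 21.5, 22.4 and 20.01 CPM with propranolol. Both were close to or at 0 in the controls. Acod1, an enzyme that makes itaconate in macrophages, changed by 6.86, and Saa3, an acute phase protein, by 8.49 (adjusted p = 5.23e-10 and 6.78e-08). Markers of myeloid cells rose in the same libraries, as given further on, and their part in these changes was not tested.

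T cell genes rose more often than they fell. Over the 11 T cell lists, with each gene counted once, 84 of 124 tested genes rose and 16 fell (median 0.81). Among all genes tested 30.1% rose and 29.9% fell, and the counts of every list that follows are to be read against these shares. In the receptor complex, 9 of 12 rose and none fell, with a median of 0.32 that turned negative under scaling on total counts or on the receptor genes themselves. Cd2, an adhesion molecule of T cells, was at 221, 227, 229 and 226 CPM in the controls and 777, 764, 751 and 730.3 CPM with propranolol, a log2 change of 1.74 ± 0.05 (SE, adjusted p = 1.51e-10). Cd28, the main costimulatory receptor, changed by 1.64, Trac, the constant part of the receptor α chain, by 1.08, and Cd5 by 0.98. Cd3e changed by 0.36 ± 0.08 (SE, adjusted p = 0.0022); its sign turned under scaling on total counts and on T cell receptor genes. Cd4 was not called (change -0.11 ± 0.08 (SE, adjusted p = 0.251)), and it was called lower under 3 other scalings and without treated library 1, at -0.18 (adjusted p = 0.0194), or with treated libraries 3 and 4 alone (adjusted p = 0.011).

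Genes that mark recent activation rose. Of 13 costimulatory and activation genes, 11 rose and none fell (median 1.64). Cd69, an early activation marker that also holds cells in tissue, stood at 68.4, 73.3, 82.5 and 73.3 CPM in the controls and 804, 863, 885 and 843 CPM with propranolol, a log2 change of 3.51 ± 0.07 (SE, adjusted p = 1.52e-11). Icos, a costimulatory receptor, was at 89.6, 94.7, 95.98 and 96.7 CPM in the controls and 854, 676, 792 and 797 CPM with propranolol, a log2 change of 3.05 ± 0.08 (SE, adjusted p = 5.71e-11), and the groups were far apart. Tnfrsf9 changed by 2.58 and Il2rb, a receptor chain for interleukins 2 and 15, by 0.92. Among 12 checkpoint and exhaustion genes, 9 rose and 1 fell (median 1.02). Pdcd1, which encodes PD-1, was at 76.8, 81.97, 74.4 and 80.8 CPM in the controls and 273, 302, 284 and 286 CPM with propranolol, a log2 change of 1.87 ± 0.06 (SE, adjusted p = 3.04e-10). Ctla4 changed by 2.59 and Tigit by 1.76. Downstream of the receptor, Ptpn22, a phosphatase, rose by 2.62, Lcp2, an adaptor, by 1.21 and Nfatc1, a transcription factor, by 1.57. In that list 9 of 15 rose and 5 fell (median 0.25, negative under scaling on total counts and on T cell receptor genes).

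Most members of the regulatory and of the T helper 1, 2 and 17 lists rose, which was not so for the T follicular helper list, while the transcription factor that defines regulatory cells was not called. Of 16 regulatory T cell genes, 12 rose and 2 fell (median 1.62). Foxp3, the lineage factor of regulatory T cells, named here after its values were seen, was at 86.4, 92.9, 96.6 and 99.02 CPM in the controls and 141, 71.2, 100.4 and 97.1 CPM with propranolol. Treated library 1 was highest and library 2 lowest, the groups overlapped, and the log2 change was 0.13 ± 0.16 (SE, adjusted p = 0.507); it was called higher without treated library 2, at 0.28 (adjusted p = 0.0367), and lower under scaling on T cell receptor genes. Il10, a suppressive cytokine, was at 2.43, 2.13, 1.92 and 2.25 CPM in the controls and 59.5, 38.4, 50.4 and 42.7 CPM with propranolol, a log2 change of 4.46 ± 0.16 (SE, adjusted p = 7.38e-10). Areg, described above, belongs to the same list.

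Of 12 T helper 1 genes, 9 rose and none fell (median 0.70). Stat4 changed by 2.02, Il12rb2, a receptor chain for interleukin 12, by 2.84 and Cxcr6, a chemokine receptor, by 1.64. Ifng, the cytokine interferon-γ, was at 1.98, 1.88, 2.66 and 2.76 CPM in the controls and 21.1, 17.8, 25.4 and 20.9 CPM with propranolol, a log2 change of 3.18 ± 0.17 (SE, adjusted p = 2.05e-08), and no treated library fell within the controls' range. Of 9 T helper 2 genes tested, 8 rose and 1 fell (median 1.99). Ccr8, a chemokine receptor, was at 6.69, 10.1, 7.54 and 8.97 CPM in the controls and 168, 151, 156 and 151 CPM with propranolol, a log2 change of 4.22 ± 0.12 (SE, adjusted p = 9.42e-11). Il4ra changed by 1.99, Il4 by 2.52 and Gata3, the lineage factor, by 0.99. Il17rb fell, from 11.03 ± 1.69 to 4.09 ± 1.22 CPM (SD, n = 4; adjusted p = 1.27e-04). Of 9 T helper 17 genes tested, 7 rose and 1 fell (median 1.35). Rora changed by 2.24, Ahr by 1.85 and Ccr6 by 1.35. Il17a had no count in any control and stood at 1.505, 4.16, 2.76 and 3.76 CPM in the treated libraries, at least 135-fold above the floor of 3 counts over the controls. In the T follicular helper list 4 of 9 rose and 1 fell (median 0.22, negative under scaling on total counts and on T cell receptor genes). There Bcl6, its lineage factor, changed by 2.88 and Cxcr5 by 0.88.

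Genes of naive and quiescent T cells moved in both directions, with 11 of 16 higher and 3 lower (median 0.70). Ccr7, which guides naive T cells to lymph nodes, was at 203, 194, 203 and 200.4 CPM in the controls and 1272, 1290.5, 1198 and 1200.2 CPM with propranolol, a log2 change of 2.63 ± 0.06 (SE, adjusted p = 1.52e-11). Satb1, a chromatin organiser, rose by 2.2. Tcf7, a transcription factor of naive and memory T cells chosen after its values were seen, fell: it stood at 997, 1019, 1000.1 and 1032 CPM in the controls and 646, 612, 604 and 604 CPM with propranolol, with no overlap, a log2 change of -0.71 ± 0.05 (SE, adjusted p = 2.51e-07). The homing genes number 17, of which 9 rose and 3 fell (median 0.82): S1pr1, which lets cells leave tissue, changed by 1.45, Cxcr4 by 2.19 and Rgs1, a brake on chemokine receptors, by 3.08.

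Cytokine signalling genes rose in 10 of 13 JAK-STAT feedback members and fell in 2 (median 1.19). Stat3 was at 263, 258, 269 and 267 CPM in the controls and 1182, 989.6, 1019 and 1091 CPM with propranolol, a log2 change of 2.02 ± 0.07 (SE, adjusted p = 3.40e-10). Pim1, a kinase induced by these cytokines, changed by 2.78, Stat5a by 1.76, Stat5b by 1.47 and Jak1 by 0.75. The interferon lists differed in their counts. Of 22 interferon-γ response genes, 17 rose and 2 fell (median 1.64), whereas of 30 type I interferon response genes 8 rose and 13 fell (median -0.19), against 30.1% higher and 29.9% lower among all genes. Irf1, an interferon-inducible transcription factor, was at 179, 173, 173 and 177 CPM in the controls and 724, 746, 748 and 751 CPM with propranolol, a log2 change of 2.08 ± 0.05 (SE, adjusted p = 4.02e-11), and the GTPases Irgm1 and Irgm2 changed by 1.7 and 1.86. Ifit2, an antiviral gene, stood at 49.8, 51.1, 49.6 and 50.7 CPM in the controls and 16.6, 16.5, 19.1 and 17.8 CPM with propranolol. All 4 treated libraries were below the controls, a log2 change of -1.52 ± 0.08 (SE, adjusted p = 1.53e-08). Isg15, by contrast, changed by 1.96 and Rsad2 by 1.36. Irf9 rose by 0.54 and Ifi203 fell, with a change of -0.53 (adjusted p = 1.49e-05 and 0.00558). The call of Ifi203 was lost with treated libraries 1 and 2 alone (adjusted p = 0.0533), and that of Irf9 with total counts alone (adjusted p = 0.0503), while its sign turned under scaling on T cell receptor genes. The difference between the 2 lists was not tested.

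Clock and glucocorticoid response genes moved in part. Of 16 clock genes 10 rose and 3 fell (median 0.82), and of 12 glucocorticoid response genes 6 rose and 3 fell (median 0.53, negative under scaling on T cell receptor genes). Nfil3 changed by 3.65, Bhlhe40 by 3.68, Nr1d2 by 1.83 and Klf9, a glucocorticoid-induced factor, by 2.02. Txnip, which inhibits glucose uptake, fell, at 636, 666, 652 and 654 CPM in the controls and 368, 435, 391 and 388 CPM with propranolol.

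Stress and biosynthesis genes rose in most members. In the heat shock list 17 of 22 rose and 2 fell (median 0.44) and in the unfolded protein list 16 of 21 rose and 3 fell (median 0.69); both medians turned negative under scaling on T cell receptor genes. Hspa1b, an inducible chaperone, was at 1.39, 2.24, 2.17 and 1.84 CPM in the controls and 35.4, 18.5, 27.1 and 25.2 CPM with propranolol, a log2 change of 3.77 ± 0.22 (SE, adjusted p = 4.10e-08). Hspa1a, its near-identical copy, changed by 4.37, so that reads shared between the pair may be split unevenly. Hsp90ab1 rose by 0.66, and this sign turned under scaling on T cell receptor genes. Hspa4l changed by 2.48 and Dnajb4 by 1.52. Atf4, the effector of the integrated stress response, was at 139.5, 144, 138 and 138 CPM in the controls and 627, 718, 639 and 660.1 CPM with propranolol, a log2 change of 2.24 ± 0.06 (SE, adjusted p = 7.88e-11), and its target Chac1 changed by 5.71. Herpud1 rose by 1.8 and Hspa5, the main chaperone of the endoplasmic reticulum, by 1.47. The promoter windows of 4 of 18 heat shock genes held the heat shock element on either strand, against 0.662% of all genes. The windows of Hspe1 and Hspd1, each with 2 matches, overlap, so these 4 genes are not separate places in the genome. Genes listed as heat shock genes may hold the element more often by that choice alone, and the share is no result of the treatment.

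Most dividing-cell genes fell. Of 30 cell cycle genes, 18 fell and 2 rose (median -0.51), against 29.9% lower among all genes. The summed level of the list ran from 4492 to 4573 CPM in the controls and from 2731 to 4533 CPM with propranolol. The highest treated sum thus lay within the range of the controls. Plk1, a mitotic kinase, was at 41.3, 37.4, 40.9 and 40.4 CPM in the controls and 8.04, 16.8, 12.9 and 12.7 CPM with propranolol, with the groups apart, a log2 change of -1.67 ± 0.18 (SE, adjusted p = 7.60e-06). Cenpe, a kinetochore motor, changed by -1.08, Cenpf by -1.43 and Tubb5, a tubulin, by -0.63. Pcna, a replication factor, rose by 0.82, a call that was lost under scaling on T cell receptor genes (adjusted p = 0.232). With treated libraries 1 and 2 alone, 14 of the cell cycle genes fell and 1 rose.

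Of 32 cytosolic ribosomal protein genes 31 rose and none fell (median 0.51), with a sign that turned under scaling on T cell receptor genes. Rps24 changed by 0.84 and Rpl4 by 0.63; Rpl4 turned negative under that scaling. These genes have near-identical copies in the genome, so their counts are uncertain in part. In glycolysis and hypoxia 13 of 22 rose and 6 fell (median 0.47, negative under scaling on T cell receptor genes). Hif1a, the oxygen-sensing transcription factor, was at 145, 146, 157 and 155 CPM in the controls and 607, 510.1, 590.3 and 579 CPM with propranolol, a log2 change of 1.92 ± 0.07 (SE, adjusted p = 6.40e-10). Vegfa changed by 3.37, Slc16a3, a lactate transporter, by 2.75 and Ldha, lactate dehydrogenase, by 0.7. Of 19 cholesterol synthesis genes 11 rose and 5 fell (median 0.42, negative under scaling on T cell receptor genes). There Insig1, a sterol sensor, changed by 2.35, Cyp51 by 2.34 and Mvk by 2.54. Of 15 apoptosis regulators 9 rose and 3 fell (median 0.59, negative under scaling on T cell receptor genes). Bcl2l11, the pro-apoptotic BIM, was at 84.9, 77.7, 77.7 and 78.2 CPM in the controls and 514, 514, 512 and 513 CPM with propranolol, a log2 change of 2.69 ± 0.06 (SE, adjusted p = 1.52e-11). Pmaip1, also pro-apoptotic, changed by 3.92 and Fasl, a death ligand, by 2.35, and Mcl1, which protects from apoptosis, by 0.59, a sign that turned under scaling on T cell receptor genes. Of 17 MHC class I presentation genes 8 rose and 4 fell (median 0.22, negative under scaling on total counts and on T cell receptor genes). B2m, the shared light chain, rose by 1.35 and Tap2, a peptide transporter, fell, with a change of -0.62. Of 26 oxidative phosphorylation genes, 8 rose and 3 fell (median 0.11, whose sign turned under 3 of 5 other scalings); the share that rose was close to the 30.1% of all genes.

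The genes that fell with the smallest p included Arhgap9, Fam78a, Slfn5 and Adcy6. Arhgap9, a GTPase-activating protein of blood cells, was at 299.6, 294, 306 and 308 CPM in the controls and 86.4, 83.9, 81.5 and 87.3 CPM with propranolol. No treated library reached the controls, and the log2 change was -1.83 ± 0.05 (SE, adjusted p = 1.50e-10). Fam78a was at 264, 254, 254 and 264 CPM in the controls and 77.96, 76.4, 72.4 and 75.4 CPM with propranolol, a log2 change of -1.78 ± 0.05 (SE, adjusted p = 1.90e-10). Slfn5, a member of the Schlafen family, stood at 158, 144, 145 and 152 CPM in the controls and 38.8, 35.8, 38.3 and 39.4 CPM with propranolol, a log2 change of -1.97 ± 0.06 (SE, adjusted p = 2.59e-10). Pdk1, a kinase that holds pyruvate dehydrogenase inactive, was at 224, 220.2, 227 and 223 CPM in the controls and 63.5, 70.6, 69.3 and 65.0 CPM with propranolol, again without overlap, and its log2 change was -1.74 ± 0.06 (SE, adjusted p = 3.91e-10).

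Cbx6, a subunit of Polycomb repressive complexes, changed by -1.83, Nxpe3 by -2.02, Tspan32, a tetraspanin of blood cells, by -1.79, Pglyrp2, an enzyme that cuts peptidoglycan, by -2.13 and Sept9, a septin, by -1.84. At a mean level of 5 CPM or more, and leaving out predicted loci and receptor segments, the largest falls were in Slc16a5, a monocarboxylate transporter, Tet1, an enzyme that oxidises methylated cytosine, Acsl6, a fatty acid ligase, and Tmie. Slc16a5 was at 25.7, 24.03, 20.6 and 22.7 CPM in the controls and 0.914, 1.71, 1.67 and 1.05 CPM with propranolol, a log2 change of -4.15 ± 0.20 (SE, adjusted p = 7.37e-09). Tet1 stood at 26.7, 26.9, 27.6 and 25.7 CPM in the controls and 1.83, 1.33, 2.49 and 2.19 CPM with propranolol. Its level was low in every treated library, and its log2 change was -3.76 ± 0.16 (SE, adjusted p = 3.18e-09). Acsl6 changed by -3.62 and Tmie by -3.61. Others in this group were Shank3 (-2.92), the vomeronasal receptor gene Vmn2r84 (-2.9), Pdlim4 (-2.87) and Fbxo17 (-2.78). Atp1b2, a subunit of the sodium pump, and Atp7b, a copper pump, changed by -2.78 and -2.75. The adjusted p values of these genes ran from 3.18e-09 for Tet1 to 4.65e-06 for Fbxo17.

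**Figure D4:**
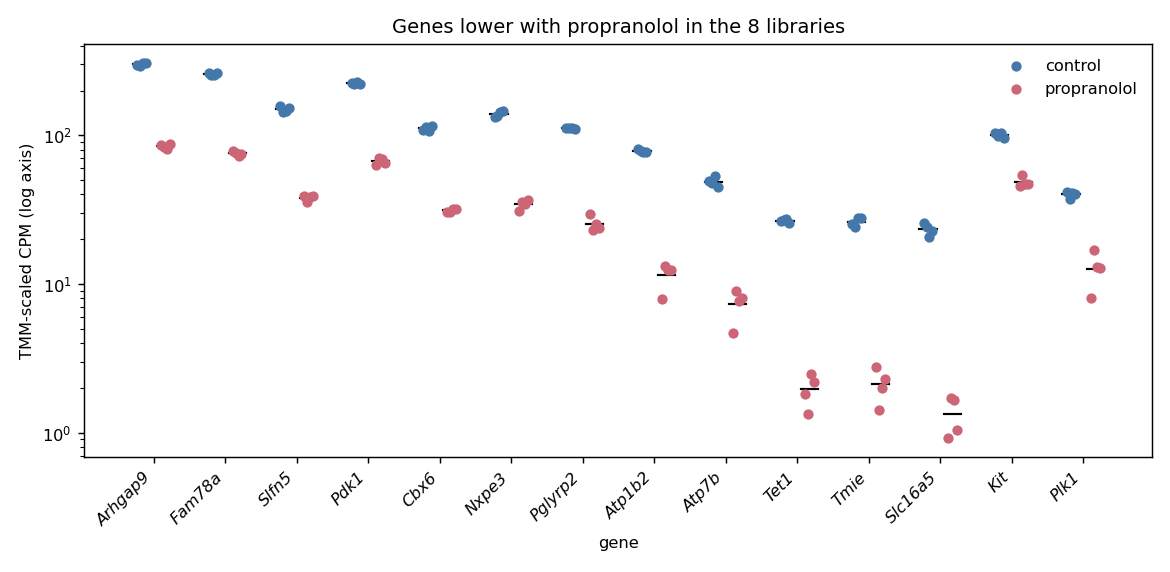
TMM-scaled CPM (log axis) of 14 genes lower with propranolol in the 8 libraries; each point is 1 library and each bar the group mean of 4 libraries, blue for controls and red for propranolol. The groups do not overlap for any gene shown, as is so for 56.4% of all genes tested. Slc16a5 falls from 23.3 ± 2.13 to 1.33 ± 0.412 CPM, and levels are not compared between genes.

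Transcripts of other cell types moved with the treatment, and in these bulk libraries a different number of cells of a type and a different amount of RNA per cell cannot be told apart. All 18 B cell genes rose (median 1.82), all 15 neutrophil genes (2.39), all 10 MHC class II genes (1.65) and 16 of 19 monocyte and macrophage genes tested, with none lower (1.46). Over the B cell list the summed level ran from 8646 to 9967 CPM in the controls and from 11409 to 12831 CPM in the treated libraries. For neutrophils the sums ran from 310.2 to 424 and from 1501 to 2118 CPM, for monocytes and macrophages from 534 to 671 and from 4806 to 5384 CPM, and for MHC class II from 649.9 to 768 and from 2670 to 3966 CPM. Most of the treated sum for monocytes and macrophages came from Nr4a1, also an immediate early gene. Without it the sums ran from 455 to 585 CPM in the controls and from 1367 to 1624 CPM in the treated libraries, and 15 of 18 genes rose (median 1.39). Ighd, the immunoglobulin D heavy chain of naive B cells, was at 18.05, 20.1, 22.2 and 22.4 CPM in the controls and 94.1, 92.6, 87.7 and 93.3 CPM with propranolol, a log2 change of 2.15 ± 0.08 (SE, adjusted p = 1.24e-09). Blk changed by 2.07, Bank1 by 2.29 and Pax5, the B cell lineage factor, by 1.93. Ighm rose by 0.26 (adjusted p = 0.00439), but its sign turned under scaling on total counts and on T cell receptor genes. Cd14, a co-receptor for bacterial lipopolysaccharide, was at 1.69, 1.51, 1.08 and 0.542 CPM in the controls and 84.2, 75.4, 76.5 and 69.8 CPM with propranolol, a log2 change of 6.04 ± 0.23 (SE, adjusted p = 1.02e-09). Lyz2, lysozyme of myeloid cells, was at 169.6, 218, 220.1 and 229.8 CPM in the controls and 575, 741, 652 and 667 CPM with propranolol, a log2 change of 1.65 ± 0.10 (SE, adjusted p = 9.09e-08). Ngp, Ltf, Lcn2 and Il1r2 of neutrophils changed by 2.86, 2.44, 3.07 and 2.39, and Chil3 by 2.54. Cd74, the chaperone of MHC class II, changed by 2.01 and H2-Aa, an MHC class II chain, by 2.66.

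These rises stand beside the activation, NF-kB and interferon-γ lists, several of whose genes B cells and myeloid cells express too, and their part in those lists' changes was not tested. Among 17 CD8 T and cytotoxic lymphocyte genes 10 rose and 2 fell (median 0.56, negative under scaling on T cell receptor genes). Cd8a was at 3.22, 4.82, 4.51 and 3.41 CPM in the controls and 11.6, 18.4, 12.4 and 13.4 CPM with propranolol, a log2 change of 1.79 ± 0.19 (SE, adjusted p = 7.89e-06). Erythroid genes rose in 7 of 8 tested and fell in 1 (median 1.53). Hbb-bs, a globin, was at 81.3, 98.8, 89.9 and 95.4 CPM in the controls and 204, 696, 425 and 387 CPM with propranolol, with treated library 2 highest, and Slc4a1, the red cell anion exchanger, was at 175, 173, 176 and 175 CPM in the controls and 169.9, 627, 369.8 and 359 CPM with propranolol. Klf1, the erythroid transcription factor, fell, at 81.7, 81.02, 77.3 and 75.4 CPM in the controls and 17.3, 53.1, 30.2 and 29.03 CPM with propranolol. Plasma cell genes split, with 6 higher and 5 lower of 18 (median 0.01, whose sign turned under 4 of 5 other scalings), close to the shares over all genes. Irf4, a transcription factor of activated lymphocytes on that list, was at 95.2, 91.8, 101 and 101 CPM in the controls and 1172, 986, 1072 and 1064 CPM with propranolol, a log2 change of 3.47 ± 0.07 (SE, adjusted p = 1.52e-11). Pou2af1 changed by 1.06 and Xbp1 by 1.0. Ighg2b and Ighg2c, chosen after their values were seen, changed by 1.97 and -0.8, with Ighg2b at 1072, 1093, 1044 and 1090.5 CPM in the controls and 1774, 6887, 4217 and 4013 CPM with propranolol. Igha, also chosen after its values were seen, was not called over all 8 libraries (adjusted p = 0.275) and was lower without treated library 2, at -0.38 (adjusted p = 2.48e-04), and under 3 other scalings.

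The remaining lists moved in both directions or were thinly counted. Of 14 endothelial genes tested, 3 rose and 6 fell (median -0.23); Eng changed by -1.66 and Pecam1 by -0.32. Of the 8 mast cell genes, 2 fell, including Kit, a receptor tyrosine kinase, at 104, 99.4, 104 and 95.7 CPM in the controls and 45.5, 53.9, 47.4 and 47.4 CPM with propranolol. Of 15 melanocyte genes 6 were tested and 3 fell, among them Pmel, from 10.2 ± 1.004 to 4.001 ± 1.04 CPM (SD, n = 4). On the same list Tyrp1, Dct, Tyr, Sox10, Slc45a2, Oca2 and Cdh19 had no count in any library of either group. Which cells the Pmel counts came from was not tested. Of 12 dendritic cell genes 7 rose and 1 fell (median 0.47, negative under scaling on T cell receptor genes), and of 10 platelet genes tested 1 rose and 4 fell (median -0.19). Lists of lung structure were tested only in part, since members without enough counts dropped out: 7 of 15 fibroblast genes (4 higher), 6 of 12 alveolar type 2 genes (4 higher, 1 lower), 5 of 9 alveolar type 1 genes (1 higher, 3 lower) and 3 of 10 airway genes (2 higher, 1 lower). The nuclear RNAs used to watch RNA quality split, with 8 of 20 higher and 5 lower (median 0.27, negative under scaling on total counts and on T cell receptor genes). Malat1, a nuclear noncoding RNA chosen after its values were seen, was at 3352, 3152, 2916 and 2879.8 CPM in the controls and 1345, 216, 788 and 811 CPM with propranolol, a log2 change of -1.96 ± 0.39 (SE, adjusted p = 0.00103). Treated library 2 was the lowest. Kcnq1ot1, another nuclear RNA, changed by -2.19, Ddx17, a helicase, by -0.78 and Ddx5, its relative, by 0.96.

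**Figure D5:**
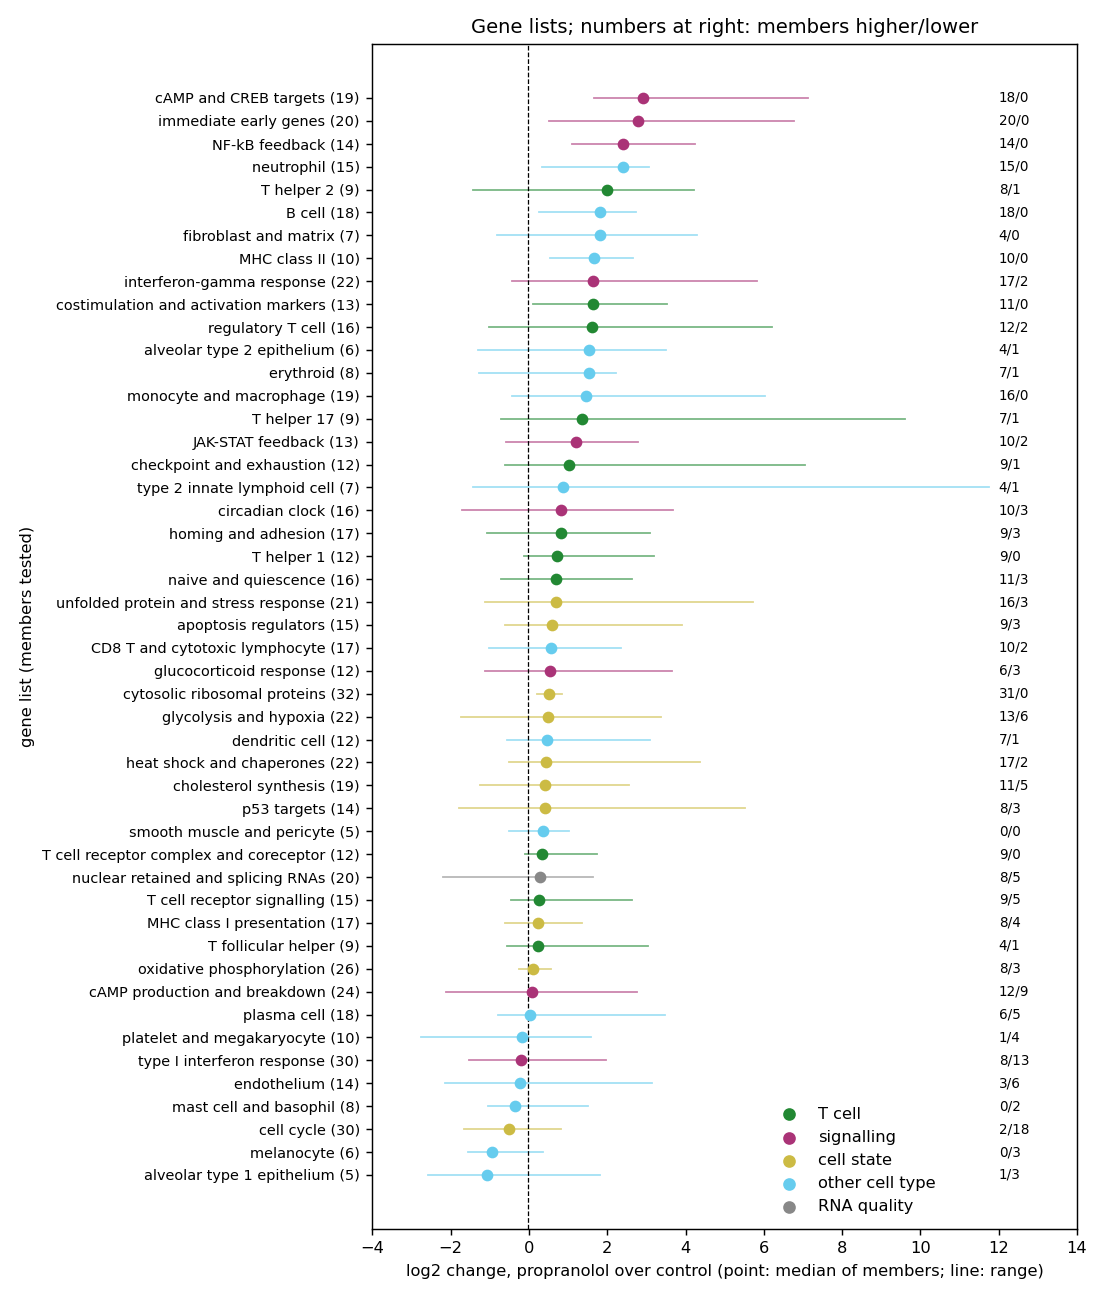
Median (point) and range (line) of the log2 change with propranolol over the tested members of each list with at least 5 members tested, coloured by kind of list; the numbers at right are members higher/lower and the dashed line is the median of all genes tested, -0.04. The lists of cAMP and CREB targets and of immediate early genes have the highest medians, 2.92 and 2.77, and the cell cycle list stands at -0.51. The lists of p53 targets, type 2 innate lymphoid cells, and smooth muscle and pericytes are shown only here. The airway and adrenoceptor lists, each with 3 members tested, are left out.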

How the data were processed

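Polyadenylated RNA of 8 libraries was used, 4 for each treatment, as grouped by treatment and cell type in the labels. The values that the authors deposited are raw whole-number counts in a table of 55416 genes; 52083 (94.0%) carry a symbol. Subread 2.0.3, featureCounts and STAR 2.7.9, with GRCm39 as the build, are named per the submitters' processing notes. Whether counting was stranded is unknown here; hence overlapping genes, antisense partners and near-identical copies are uncertain in part. The table of lung and monocyte libraries was not used here.

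Genes were kept by filterByExpr (minimum count 10), scaled by TMM and tested by edgeR 4.0.16 in R 4.3.3 (quasi-likelihood F test, treatment as the only term) with Benjamini-Hochberg adjustment at 0.05. Log2 changes are propranolol over control; SE is the change divided by the square root of F. A group all at 0 was set to a floor of 3 counts over its libraries. The members of all 50 lists, and the comparison itself, were chosen with earlier results of these data known. Genes were named by a rule: the 10 smallest p and the 10 largest changes in each direction (means of at least 1 and 5 CPM), the β-adrenoceptor and T cell marker genes, and up to 4 members per list by p plus the one with the highest mean; others are marked in the text, and some genes that the rule named are left out of it. The labels do not say whether replicate numbers pair the libraries. Correlations of same-numbered deviations ran from -0.02 to 0.04, which cannot show that a pairing was absent, and no pairing was used in the main fit. Alternatives used DESeq2 1.42.0, limma 3.58.1, other scalings, filters, a fold threshold and left-out libraries. The scripts were tested on simulated counts.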

Additional observations from a re-analysis of the deposited data

Results flagged for a closer look

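For 172 genes of the text, the highest or lowest library of each group of 4 was set against the other 3, and 20 of 344 groups (5.81%) had 1 library further from the rest than Dixon's 95% critical value allows. Chance marks about 1 in 20 groups, and no explanation was tested. No such library crossed to the other group's side.

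Control library 1 stood apart for 7 genes. It was the highest for Areg at 0.892 CPM (others from 0.504 to 0.542 CPM), Cdkn1a at 3.22 CPM, Irf9 at 134.8 CPM and Bcl2l11 at 84.9 CPM. It was the lowest for Gadd45b at 14.6 CPM, Rsad2 at 10.6 CPM and Slc16a3 at 7.59 CPM (the next lowest 1.61 times higher). Control library 2 was the lowest for Akap13 at 742 CPM and Cenpf at 52.2 CPM, and the highest for Vmn2r84 at 19.0 CPM. Treated library 1 was the highest for Nr4a1 at 4018 CPM, Cyp51 at 172 CPM and Sept9 at 120.4 CPM (others from 99.5 to 103 CPM). Treated library 2 was the highest for Herpud1 at 501 CPM, Pax5 at 66.1 CPM, Pou2af1 at 182 CPM and Ighg2c at 1848 CPM. Treated library 3 was the lowest for Irf9 at 169 CPM, and treated library 4 was the lowest for Pmepa1 at 231.9 CPM and Insig1 at 146 CPM.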

How the results depend on the processing

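The number of genes changed stayed within 1.5 times of 9929 with other size factors, DESeq2's own test (10326), limma-voom (10252), no filter (10270), a mean of at least 5 CPM (7715) and each library left out (from 9122 to 10739 changed, 4648 to 5290 higher, 4434 to 5449 lower). Scaling moved the split: 2886 were higher and 8064 lower with total counts alone, and 1779 and 10427 under scaling on T cell receptor genes, by construction of those scalings. A test against a fold of 1.5 left 4540 changed (2334 higher, 2206 lower). With the 4 controls summed to 1 library and treated libraries 1 and 2 alone, an alternative added after the data had been seen like the pairs of treated libraries, 771 changed (651 higher, 120 lower), with 3 libraries in the fit, and 49 of 172 named genes lost their call. With the replicate number as a block, although the labels state no pairing, 9579 changed (4789 higher, 4790 lower) and no named gene changed its call. Of 172 named genes, 120 kept their direction and side of the threshold under every alternative run. Signs turned for Cd3e (-0.022) and Ighm (-0.13) with total counts alone, and for Cd3e (-0.33), Akap13 (-0.30), Foxp3 (-0.57), Irf9 (-0.16), Hsp90ab1 (-0.031), Rpl4 (-0.053), Mcl1 (-0.10) and Ighm (-0.44) under scaling on T cell receptor genes. Genes with few counts in the controls, such as Ptgs2 and Saa3, have imprecise fold changes.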

Other observations

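T cell receptor variable segments were outside the named genes. Of 68 Trav segments tested, 31 were higher with propranolol and none lower, against 30.1% and 29.9% of all genes tested, with a median log2 change of 0.67. Scaling on T cell receptor genes shifted the median of all genes by -0.69, as much as this median. The Trav counts were made under the main scaling only. Of 22 Trbv segments, 5 were higher and 3 lower (median 0.15). Trbv19 was at 16.1, 15.6, 16.5 and 16.3 CPM in the controls and 22.8, 18.9, 21.3 and 23.8 CPM with propranolol, and Trbv2 at 22.6, 22.5, 22.2 and 20.9 CPM in the controls and 16.4, 17.9, 17.2 and 16.6 CPM with propranolol, in opposite directions without overlap in either. Both were picked after their values were seen.

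Immunoglobulin variable segments moved in both directions, in shares near or below those of all genes tested, 30.1% higher and 29.9% lower, apart from a somewhat larger share of lower Ighv segments. Of 113 Ighv segments 23 were higher and 38 lower (median -0.19), and of 102 Igkv segments 26 were higher and 29 lower (median -0.0039). Igkv17-127 was at 313, 474, 454 and 489 CPM in the controls and 43.1, 49.5, 45.6 and 49.7 CPM with propranolol, and every treated library was lower than every control. Ighv5-12 was at 6.54, 5.52, 4.78 and 5.58 CPM in the controls and 37.9, 19.9, 27.7 and 32.04 CPM with propranolol, and all treated libraries were higher. These segments were chosen by their adjusted p, 2.57e-09 and 6.12e-07, after the values were seen.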
